A study of Mus musculus with 15 samples.

Results

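The genes of the integrin and laminin chains were examined in mouse liver. Members were all genes of the deposited count files whose symbol starts with Itga, is Itgb1 to Itgb8, or names a laminin alpha, beta or gamma chain (Lama, Lamb or Lamc with a number). The rule found 37 of the 24411 genes: 26 integrins and 11 laminins. Of these, 32 (23 integrins and 9 laminins) had enough counts to be among the 13055 genes tested. Itga11, Itgad, Itgae, Lama1 and Lama2 did not pass the filter on low counts. Poly(A) RNA of whole liver was sequenced in 15 libraries: 4 controls labelled TdTomato, a red fluorescent reporter, 6 labelled LATS KO and 5 labelled Yap OE, called TdTomato, LATS_KO and YAP_OE here. LATS1 and LATS2 are Hippo pathway kinases that phosphorylate the coactivator YAP and keep it out of the nucleus, so both manipulations bear on YAP. The labels give no allele, promoter, Cre line, vector, strain, age, sex, dose or time for any group, and the extraction text describes a different set of mice. Separate animals are not named for the libraries of a group, and the spread that the p-values measure may thus be technical.

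Integrins are cell surface receptors made of 1 alpha and 1 beta chain that tie the cytoskeleton to the extracellular matrix or to other cells. Laminins are matrix proteins made of 1 alpha, 1 beta and 1 gamma chain, and they form the sheet of basement membranes around epithelia, vessels and muscle. In the normal liver, bile ducts and vessels have a laminin basement membrane, while hepatocytes face a matrix with little of it. Some integrins, those with the beta chain Itgb2, are restricted to leukocytes.

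Depth ranged from 6166680 to 28225360 counts assigned to genes per library. TdTomato 1 and LATS_KO 3 stood apart: the unmapped share of their reads was 78.5% and 89.9% (2.53% to 16.7% elsewhere), and 8501 and 9710 genes had a count, against at least 13372. Of the 37 members, 30 had 0 counts in TdTomato 1 and 21 had 0 in LATS_KO 3, against at most 8 in any other library. Each call below was therefore also computed without these libraries, in a fit added after seeing the data. Values scaled to library size are CPM, the count per 1e+06 scaled counts of a library. Yap1 was at 94.9 to 115 CPM in TdTomato, 66.0 to 86.4 in LATS_KO and 146 to 212 in YAP_OE. Lats1 was at 0 to 46.0, 0 to 27.4 and 20.1 to 39.8 CPM in the same order and Lats2 at 0 to 19.6, 7.67 to 41.0 and 48.8 to 62.2 CPM. The ranges of both genes overlapped between TdTomato and LATS_KO. For Lats1 the overlap came only from TdTomato 1, at 0, and the other controls lay above every LATS_KO library. Gene-wide counts also take in exons that a deletion leaves, so they do not check it. The 8 hepatocyte markers summed to at least 39268 CPM in every library, and Alb did not pass in either group (−0.17 in both). Of the 8, 1 was lower in LATS_KO and 3 in YAP_OE, against 0.973% and 10.8% of all tested genes. Tat, an enzyme of tyrosine breakdown, fell by 1.42 ± 0.40 and 2.95 ± 0.43 on the log2 scale (adjusted p = 0.032 and 0.0012), and Asgr1, a receptor of hepatocytes, fell by 2.49 ± 0.70 in YAP_OE (adjusted p = 0.017). Their part in the rises below was not tested.

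Against TdTomato, 11 of the 32 tested members were higher in LATS_KO and 0 were lower. Over all tested genes, 10.0% were higher and 0.973% lower (edgeR's quasi-likelihood test, adjusted p under 0.05). In YAP_OE, 18 of the 32 were higher and 0 were lower, against 17.9% and 10.8% of all tested genes, 28.7% in all. At an unadjusted p under 0.05, 19 and 21 members were higher and 0 were lower in either comparison. The share of all tested genes at that threshold was not computed, so these counts cannot be set against it. By adjusted p, DESeq2 also called 0 members lower, whereas voom called 1 lower in YAP_OE. The median log2 fold change of the tested members was 3.07 in LATS_KO and 3.36 in YAP_OE, against 0.13 and 0.17 over all tested genes. Itgb4, Itgb6, Itgb8, Itgam and Itgax, with 1 to 3 control counts each, passed the filter on low counts only through the other groups. The same held for Itga4, Itgb2, Itgb3, Itgb7, Lamb1 and Lamc3, which had at most 0.397 CPM in any control. Such members could hardly be called lower, and this bears on the medians and on the counts of members higher and lower. A member at 0 in TdTomato 1 could not pass the filter through the 4 controls alone, and 30 of the 37 members were at 0 there. The 2 comparisons share the TdTomato libraries. RLE scaling moved the median of all genes in YAP_OE to 0.34 and that of the members to 3.57. With voom, the members' median was 1.16 in LATS_KO and 2.80 in YAP_OE, against 0.03 and 0.07 over all genes, and 60.2% and 53.0% of all calls were higher, against 91.2% and 62.3% in the reported fit.

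**Figure D1:**
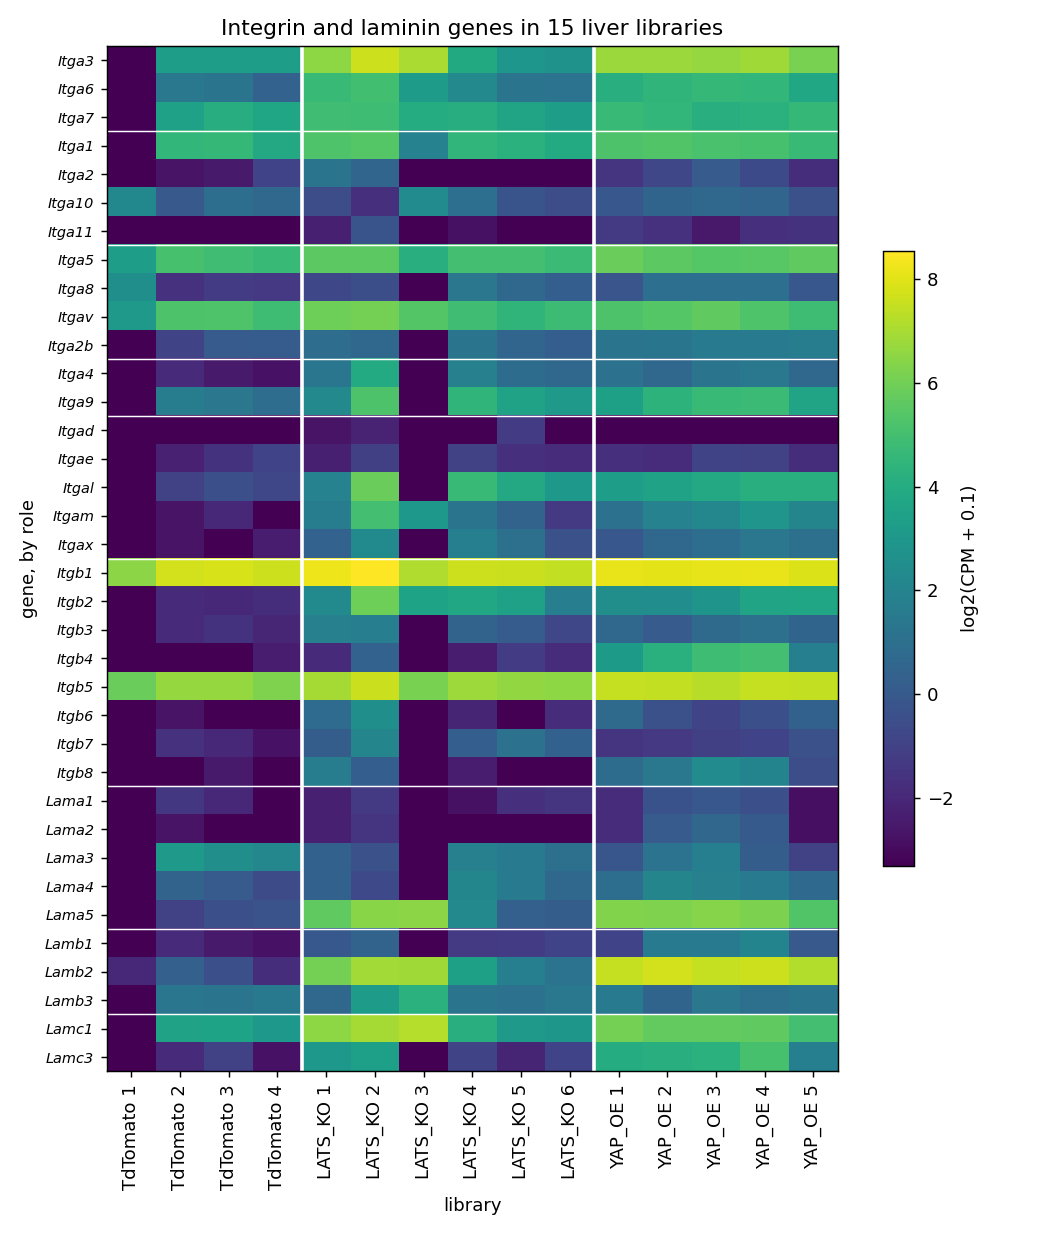
Levels of 36 integrin and laminin chains in each of the 15 libraries. Rows are genes, columns are libraries in the 3 groups, and colour gives the level in CPM on a log scale. TdTomato 1 and LATS_KO 3 have 0 counts for 29 and 21 of the 36 genes drawn.

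The groups separated without overlap for fewer members in LATS_KO than in YAP_OE. Itgam, Itgb2, Lama5 and Lamb2 were higher in every LATS_KO library than in every TdTomato library, which is 4 members against 6.65% of all tested genes. LATS_KO 3, with 21 of the 37 members at 0, bears on this count. Itgal and Itga9, for instance, were at 0 there and above all controls in every other LATS_KO library. Lamc3, also at 0 there, overlapped the controls in other LATS_KO libraries too. Every YAP_OE library lay above every TdTomato library for 27 of the 37 members. The share over all tested genes, which leave out the 5 untested members, was 28.3%. Those 27 were the 18 members called, the untested Itga11, and Itga1, Itga2b, Itga5, Itga7, Itgb1, Itgb7, Lama4 and Lamc1, which did not pass the test. Without TdTomato 1 and LATS_KO 3, all 30 calls of members remained, with 13 members higher in LATS_KO (13.7% of all genes) and 23 in YAP_OE (27.2%). Itga8 and Itga9 were added in LATS_KO, and Lamc1, Lama2, Itga2b, Itga5 and Itga8 in YAP_OE, where Lama3 was lower (21.2% of all genes; 3.24% and 0 members in LATS_KO). The LATS_KO count depended on which groups were fitted together. When only TdTomato and LATS_KO were fitted, 0 members and 1 gene of 12020 (0.00832%) passed. In that fit 13 members had an unadjusted p under 0.05, and the share of all genes at that threshold was not computed. With YAP_OE and TdTomato alone, 21 members were higher, against 38.2% of all genes called in either direction. With voom, calls were kept but smaller in LATS_KO for Lama5 (2.48), Lamb2 (3.12), Itgb2 (5.78), Itgam (4.11), Itga4 (4.09), Itgb3 (2.42) and Itgb7 (2.87). In YAP_OE this held for Itgb2 (5.19), Itgam (5.45), Itga4 (3.72), Itgb3 (2.68), Itgb6 (3.68), Itgb8 (6.05) and Lamb1 (3.99). The LATS_KO count was 7 without TdTomato 2 and 6 without TdTomato 4.

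**Figure D2:**
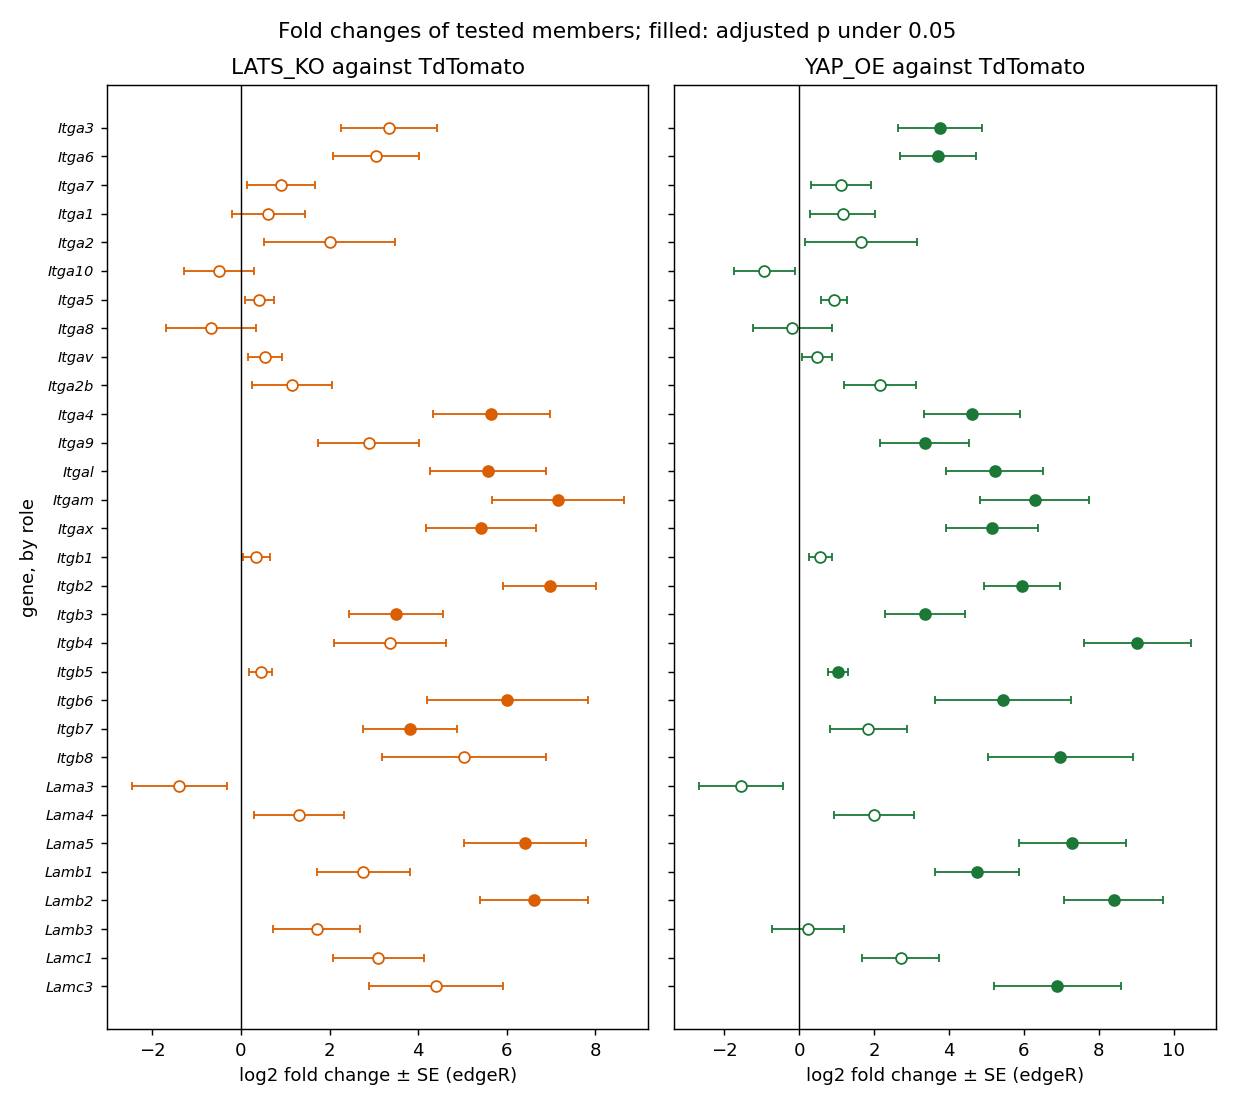
Log2 fold changes of 31 tested members against TdTomato with their standard errors, for LATS_KO and YAP_OE. Filled points passed the test: 10 in LATS_KO and 17 in YAP_OE, all above 0.

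The bases upstream of 4 members that the results turn on are shown because they cover a laminin chain high in both groups (Lama5), the beta chain with the smallest error among those called in YAP_OE (Itgb5), the most abundant chain, which was not called (Itgb1), and a leukocyte chain (Itgam). They are the 250 bases before the RefSeq start on GRCm38.p6, given in the direction of transcription. Lama5 is at chr2:180225860-180226109 on the minus strand, Itgb5 at chr16:33829415-33829664, Itgb1 at chr8:128685404-128685653 and Itgam at chr7:128062390-128062639, the last 3 on the plus strand. Capitals mark matches on either strand to the TEAD core GGAATG, the AP-1 site TGANTCA, the GC box GGGCGG and the PU.1 core GAGGAA. TEAD proteins are the DNA-binding partners of YAP, and PU.1 is a factor of myeloid cells.
Lama5: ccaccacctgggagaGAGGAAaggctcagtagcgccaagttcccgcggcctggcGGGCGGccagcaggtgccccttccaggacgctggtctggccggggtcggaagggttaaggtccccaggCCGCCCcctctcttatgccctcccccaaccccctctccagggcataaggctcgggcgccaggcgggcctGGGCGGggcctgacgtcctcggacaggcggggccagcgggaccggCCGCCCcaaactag
Itgb5: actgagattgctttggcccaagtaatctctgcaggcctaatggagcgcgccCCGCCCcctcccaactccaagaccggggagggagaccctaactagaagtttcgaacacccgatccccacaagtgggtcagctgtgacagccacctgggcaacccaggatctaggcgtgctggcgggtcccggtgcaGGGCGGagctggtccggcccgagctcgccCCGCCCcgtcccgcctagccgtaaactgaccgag
Itgb1: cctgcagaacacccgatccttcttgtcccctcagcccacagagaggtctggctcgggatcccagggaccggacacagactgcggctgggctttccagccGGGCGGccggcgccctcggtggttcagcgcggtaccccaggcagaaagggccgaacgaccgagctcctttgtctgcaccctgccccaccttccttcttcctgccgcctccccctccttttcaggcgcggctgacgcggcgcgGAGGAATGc
Itgam: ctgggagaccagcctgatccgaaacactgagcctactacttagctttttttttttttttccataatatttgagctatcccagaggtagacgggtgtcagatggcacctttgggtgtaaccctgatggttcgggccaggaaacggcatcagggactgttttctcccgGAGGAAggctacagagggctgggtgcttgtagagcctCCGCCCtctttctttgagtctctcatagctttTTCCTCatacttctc
Lama5 held 4 GC boxes and 1 PU.1 core, Itgb5 held 3 GC boxes, and Itgam held 1 GC box and 2 PU.1 cores. Itgb1 held 1 GC box, and 1 PU.1 core and 1 TEAD core that overlap in their letters just before the start. RefSeq windows were found for 23 of the 37 members, 26 windows in all. The TEAD core was in 3 of them (Itga10, Itgb1 and Lamb3) against 12.6% of all 32851 windows, and the AP-1 site in 1 (Itgax) against 6.75%. The GC box was in 9 against 32.7% and the PU.1 core in 13 against 23.3%. A match is a description of the letters, not evidence of a bound factor, and a window without one says nothing about the factor.

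Among the laminin alpha chains, Lama5, the broadly made alpha chain of epithelial and vascular basement membranes, rose in both groups. Lama5 (chromosome 2, 180176373 to 180225859, mm10) measured 0, 0.386, 0.635 and 0.718 CPM in TdTomato 1 to 4. In LATS_KO 1 to 6 it was at 50.3, 85.8, 88.2, 4.78, 1.15 and 1.02 CPM, and in YAP_OE 1 to 5 at 79.8, 75.5, 84.5, 73.4 and 40.6 CPM. Both groups lay wholly above TdTomato, and within LATS_KO the values of libraries 1 to 3 were far above those of 4 to 6. The log2 fold change was 6.41 ± 1.37 (SE) in LATS_KO (adjusted p = 0.011) and 7.29 ± 1.43 in YAP_OE (adjusted p = 0.0035), and 5.61 in LATS_KO without TdTomato 1 and LATS_KO 3. Lama3, the alpha chain of the laminin that anchors epithelia through hemidesmosomes, was at 0, 8.17, 5.72 and 4.40 CPM in TdTomato, at most 3.55 in LATS_KO and at most 3.37 in YAP_OE. It did not pass (−1.40 ± 1.07 and −1.55 ± 1.13, adjusted p = 0.46 and 0.34), but without TdTomato 1 and LATS_KO 3 it was lower in YAP_OE (−1.96 ± 0.63, adjusted p = 0.022). Lama4, a chain of vascular basement membranes, did not pass (1.31 ± 1.02 and 2.00 ± 1.07). Lama1 and Lama2 were not tested and stayed at or below 0.823 and 1.42 CPM in all libraries.

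Of the beta chains, Lamb2 rose in both groups and Lamb1 in YAP_OE. Lamb2 (chromosome 9, 108479736 to 108490530) measured 0.155, 1.16, 0.635 and 0.192 CPM in TdTomato and at 67.2, 119, 116, 10.7, 3.44 and 2.16 CPM in LATS_KO 1 to 6. In YAP_OE 1 to 5 it was at 180.2, 216, 179, 197 and 143 CPM, above all libraries of the other groups. The log2 fold change was 6.61 ± 1.22 in LATS_KO (adjusted p = 0.0062) and 8.39 ± 1.32 in YAP_OE (adjusted p = 0.0015), and without TdTomato 2 it was 7.37 and 9.16. Without TdTomato 1 and LATS_KO 3 it was 5.94 in LATS_KO. Between YAP_OE and LATS_KO the difference of 1.78 ± 0.81 did not pass (adjusted p = 0.32). Lamb1, the beta chain that Lamb2 replaces in many mature basement membranes, was at most 0.166 CPM in TdTomato, 1.26 in LATS_KO and 3.93 in YAP_OE. Its log2 fold change of 4.75 ± 1.12 in YAP_OE passed (adjusted p = 0.0076, 5.49 without TdTomato 2), but not with the column counted without strand (adjusted p = 0.085). Lamb3, a chain of epithelial laminins, stayed between 1.30 and 2.92 CPM in YAP_OE and reached 18.9 CPM in LATS_KO 3. Its differences did not pass (1.71 ± 0.97 and 0.24 ± 0.96).

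Lamc1 (chromosome 1, 153218922 to 153332786), the gamma chain of most laminins, measured 0, 11.2, 11.6 and 7.996 CPM in TdTomato. It was at 92.4, 122, 151, 17.5, 8.16 and 7.75 CPM across LATS_KO 1 to 6, and at 66.9, 52.0, 52.3, 49.7 and 32.1 CPM across YAP_OE 1 to 5. YAP_OE lay above TdTomato in every library, and LATS_KO 5 and 6 lay within the control range. Neither difference passed (3.10 ± 1.03, adjusted p = 0.066, and 2.71 ± 1.03, adjusted p = 0.059), and without TdTomato 1 and LATS_KO 3 the one in YAP_OE did (2.30, adjusted p = 0.040). Lamc3 was at 0, 0.166, 0.397 and 0.0479 CPM in TdTomato, at 8.06, 10.2, 0, 0.438, 0.135 and 0.421 CPM across LATS_KO 1 to 6, and at 16.2, 18.0, 18.9, 34.3 and 3.37 CPM across YAP_OE 1 to 5. The rise in YAP_OE passed (6.89 ± 1.69, adjusted p = 0.0089, 7.81 without TdTomato 3). The LATS_KO libraries overlapped the controls and did not pass (4.40 ± 1.52, adjusted p = 0.077).

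**Figure D3:**
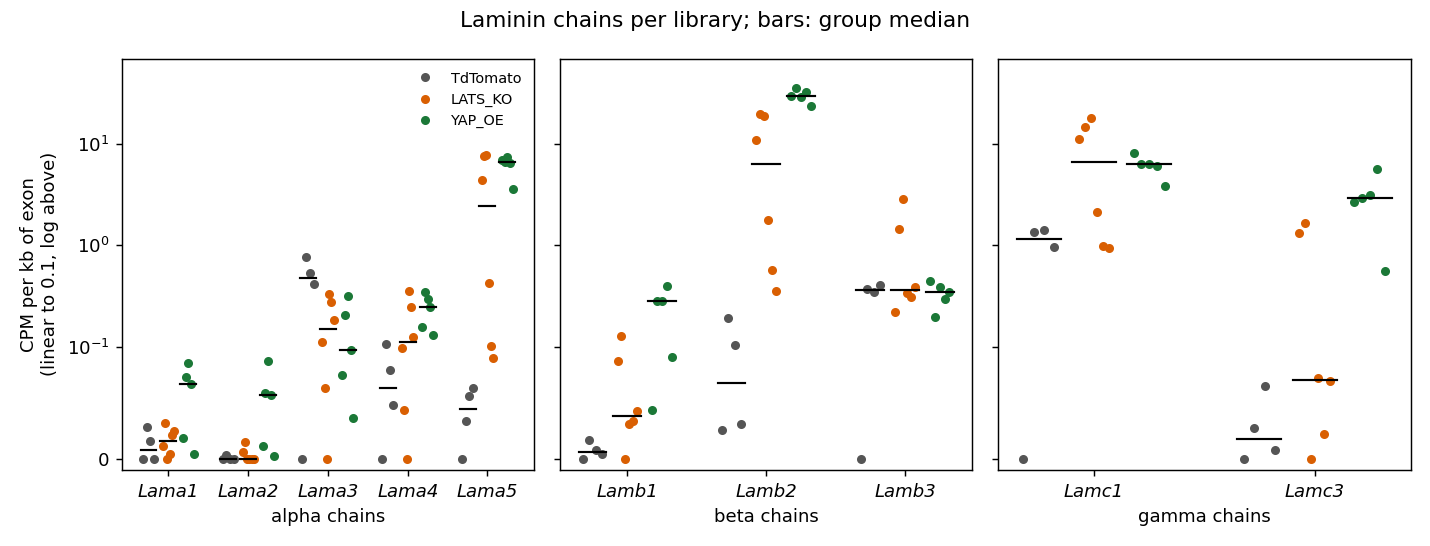
Laminin chains per library in CPM per kilobase of exon (linear to 0.1, logarithmic above), with a bar at the group median. Lama5, Lamb2 and Lamc3 in YAP_OE lie above the TdTomato libraries.

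To compare chains with each other, CPM were divided by the kilobases of merged exons. On this scale the leading chain of the alpha and beta classes differed between the groups. Among alpha chains, Lama3 held a median of 78.7% of the summed level in the 3 TdTomato libraries with a laminin alpha count, and Lama5 held 93.3% in YAP_OE (90.5% to 96.4%). Among beta chains, Lamb3 held 0%, 63.9%, 75.6% and 91.8% in TdTomato 1 to 4, where TdTomato 1 had counts for Lamb2 alone (100%, on 2 counts), and Lamb2 held a median of 98.2% in YAP_OE (97.8% to 98.7%). In LATS_KO, Lama5 held 15.6% to 100% and Lamb2 45.1% to 97.3%. Summed over the class, the median laminin beta level was 0.45 CPM per kilobase in TdTomato, 6.74 in LATS_KO and 30.1 in YAP_OE. These shares describe RNA and have no test.

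The integrins that bind laminin were next. Itga3 and Itga6 rose in YAP_OE, and Itga7, which is best known from muscle, did not pass (0.91 ± 0.77 and 1.12 ± 0.79). Itga3 (chromosome 11, 95044474 to 95076801), which pairs with Itgb1, was at 0, 10.1, 9.77 and 9.96 CPM in TdTomato and at 109, 108, 103, 116 and 71.9 CPM across YAP_OE 1 to 5. In LATS_KO 1 to 6 it was at 91.0, 203.0, 132, 14.9, 7.49 and 6.73 CPM, so LATS_KO 5 and 6 lay below 3 of the controls. The log2 fold change was 3.76 ± 1.13 in YAP_OE (adjusted p = 0.023, 0.052 without TdTomato 4) and 3.34 ± 1.09 in LATS_KO (adjusted p = 0.062). Itga6, which pairs with Itgb1 or Itgb4, was at 0, 2.59, 2.30 and 1.24 CPM in TdTomato, at 26.6, 30.7, 9.44, 4.74, 2.29 and 2.16 CPM in LATS_KO and at 17.6, 21.9, 24.2, 23.2 and 13.4 CPM in YAP_OE. It passed in YAP_OE (3.70 ± 1.02, adjusted p = 0.015) and not in LATS_KO (3.04 ± 0.97, adjusted p = 0.056), and the difference between those groups did not pass either (0.66 ± 0.79, adjusted p = 0.82).

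Itgb4, the beta chain that joins Itga6 in hemidesmosomes of epithelial cells, was the only member called between YAP_OE and LATS_KO in the reported fit. Over all tested genes in that fit, 0.498% were higher and 0.490% lower in YAP_OE, 0.988% in all. The other 31 tested members did not pass. Voom called 18 members higher and 1 lower, but it called 7325 of the 13055 tested genes here, 50.5% of them higher. Itgb4 (chromosome 11, 115974709 to 116008412) had 0, 0, 0 and 0.0958 CPM in TdTomato and 0.162, 1.23, 0, 0.0877, 0.337 and 0.180 CPM in LATS_KO 1 to 6. In YAP_OE 1 to 5 it was at 8.62, 18.4, 29.0, 31.6 and 3.33 CPM, all above every other library. Against LATS_KO the log2 fold change was 5.66 ± 0.96 (adjusted p = 0.011), and 6.79 without LATS_KO 2. Against TdTomato, with 2 counts, the ratio was 582 (161 to 4811) in YAP_OE (adjusted p = 0.0015), and at least 263-fold without TdTomato 4, where the controls had 0 counts. In LATS_KO the ratio was 14.95 (3.94 to 127) and did not pass (adjusted p = 0.10). It was 5.13 without LATS_KO 2, and at least 6.74-fold without TdTomato 4. Itga2b and Lamb2 also had every YAP_OE library above every LATS_KO library, which is 3 members against 4.76% of all tested genes. Without TdTomato 1 and LATS_KO 3, Itgb7 was lower in YAP_OE than in LATS_KO (−2.24 ± 0.51, adjusted p = 0.017) and Itgb4 was higher, against 7.17% and 5.56% of all genes, and with only YAP_OE and LATS_KO fitted Itgb4 alone was called, against 1.22%.

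The summed level of 6 biliary markers was 14.1 to 40.3 CPM in TdTomato and 121 to 210.2 CPM in YAP_OE. In LATS_KO 1 to 6 it was 233, 189, 116, 32.9, 27.2 and 29.6 CPM, so LATS_KO 1 to 3 lay in or near the YAP_OE range while their Itgb4 was at most 1.23 CPM. Lama5, Lamb2, Lamc1, Itga3 and Itga6 were also higher in LATS_KO 1 to 3 than in LATS_KO 4 to 6. Of the 6 markers, 3 were higher in LATS_KO and 5 in YAP_OE, against 10.0% and 17.9% of all tested genes. Stellate and fibroblast markers (7 genes) summed to 0.0774 to 10.9, 0 to 19.4 and 12.7 to 66.3 CPM in TdTomato, LATS_KO and YAP_OE. Col1a1 and Acta2 were at 0 in all TdTomato libraries, whereas Reln had a median of 3.83 CPM there and 1.25 CPM in LATS_KO. Of these 7, 1 was higher in LATS_KO and 6 in YAP_OE, against 10.0% and 17.9% of all tested genes. Endothelial markers (7 genes) summed to 13.2 to 46.0, 11.8 to 233 and 94.6 to 154 CPM. Of them, 2 were higher in LATS_KO and 2 in YAP_OE, against the same 10.0% and 17.9%. The part of these cells in the laminin and integrin values was not tested. In whole tissue, fewer cells of a type and less RNA per cell cannot be told apart.

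Itgb1, the beta chain shared by the largest number of integrins, was the most abundant member per kilobase in all 3 groups and did not pass in either comparison. Itgb1 (chromosome 8, 128685654 to 128733200) measured 90.3, 213, 224 and 199 CPM in TdTomato, at 308, 374, 139, 200.1, 191 and 177 CPM in LATS_KO and at 282, 266, 278, 281 and 240.5 CPM in YAP_OE. The YAP_OE libraries lay above all controls, and the LATS_KO libraries overlapped them. The log2 fold change was 0.57 ± 0.31 in YAP_OE (adjusted p = 0.19), and it passed with DESeq2 (0.76, adjusted p = 0.035) and voom (0.35, adjusted p = 0.0062). In LATS_KO it was 0.35 ± 0.30 (adjusted p = 0.52) and turned to −0.11 with voom. Its median level was 50.4 CPM per kilobase in TdTomato, 48.0 in LATS_KO and 68.2 in YAP_OE.

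Itgb5, which pairs with Itgav to bind vitronectin, was second in that order at 24.9, 29.3 and 49.6 CPM per kilobase, and its YAP_OE libraries were tightly grouped. Itgb5 (chromosome 16, 33829665 to 33949338) measured 57.1, 100.5, 100.5 and 76.7 CPM in TdTomato, at 122, 191, 70.8, 111, 97.3 and 91.3 CPM in LATS_KO and at 180.0, 173, 154, 182 and 176 CPM in YAP_OE. The log2 fold change of 1.05 ± 0.27 in YAP_OE passed (adjusted p = 0.010) and that in LATS_KO did not (0.44 ± 0.25, adjusted p = 0.30). The difference between YAP_OE and LATS_KO did not pass (0.61 ± 0.23, adjusted p = 0.23).

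The other alpha chains that bind RGD sites or collagen did not pass in the reported fit. Itga5, the fibronectin receptor chain, had 9.68, 34.3, 30.3 and 26.5 CPM in TdTomato and 57.4, 46.5, 42.9, 43.5 and 50.1 CPM in YAP_OE (0.93 ± 0.34, adjusted p = 0.051), and it passed without TdTomato 1 and LATS_KO 3. Itgav, the alpha chain that several RGD-binding integrins share, did not pass (0.54 and 0.47). Of the 3 tested collagen-binding chains, 0 passed by edgeR, with 0 at an unadjusted p under 0.05, among them Itga1, the chain of a collagen receptor, at 0, 23.3, 24.2 and 14.3 CPM in TdTomato and 26.6 to 39.6 CPM in YAP_OE. Itga2b, the platelet alpha chain, had log2 fold changes of 1.15 and 2.17 (adjusted p = 0.48 and 0.10). Itga8 and Itga10 had their highest control value in TdTomato 1, at 5.89 and 4.49 CPM, against at most 0.318 and 1.83 CPM in the other controls. Without TdTomato 1 and LATS_KO 3, Itga8 was higher in both groups (2.16, adjusted p = 0.037, and 2.40, adjusted p = 0.0092), whereas with them it was −0.67 and −0.18.

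Itgb3, Itgb6 and Itgb8, beta chains that pair with Itgav, were low and were called on few counts. Itgb3 was at most 0.238 CPM in TdTomato and rose in LATS_KO (3.49 ± 1.06, adjusted p = 0.046) and YAP_OE (3.36 ± 1.07, adjusted p = 0.029). Its call in LATS_KO was lost, with adjusted p = 0.057 to 0.11, without any 1 of 12 libraries (all but LATS_KO 3, 5 and 6), and that in YAP_OE without TdTomato 2 or 4 or YAP_OE 1 or 4. Itgb6, an epithelial chain that can activate latent TGF-beta, had 1 control count, with ratios of 131 (23.3 to 5193) in LATS_KO and 60.5 (10.7 to 2407) in YAP_OE (adjusted p = 0.046 and 0.036). The ratio in LATS_KO was 29.2 without LATS_KO 2, which held 5.99 CPM against at most 1.68 in the other LATS_KO libraries, and without TdTomato 2 it was at least 31.4-fold and, in YAP_OE, at least 14.5-fold. The Itgb6 call was lost without any 1 of 11 libraries in LATS_KO (TdTomato 1 to 4, LATS_KO 1 and 2, YAP_OE 1 to 5; adjusted p = 0.060 to 0.12) and without any 1 of 8 in YAP_OE (TdTomato 1 to 4, YAP_OE 1, 2, 4 and 5). Itgb6 in LATS_KO also did not pass with voom (0.96, adjusted p = 0.43), and neither it nor Itgb3 passed there without the filter on low counts (adjusted p = 0.052 and 0.062). Itgb8, another chain that binds latent TGF-beta, also had 1 control count. In YAP_OE it was at 1.75, 2.59, 5.13, 3.97 and 0.588 CPM, a ratio of 180.1 (32.1 to 7131; adjusted p = 0.016, 0.0501 without TdTomato 4), and at least 48.3-fold without TdTomato 3. In LATS_KO the ratio of 53.6 (9.39 to 2139) did not pass (adjusted p = 0.095), and it was 24.9 without LATS_KO 1 and at least 14.4-fold without TdTomato 3.

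The leukocyte integrins rose in both groups. All 3 tested leukocyte alpha chains and Itgb2, their shared beta chain, passed against TdTomato in LATS_KO and in YAP_OE. Itgb2 (chromosome 10, 77530252 to 77565708) measured 0, 0.166, 0.159 and 0.192 CPM in TdTomato, at 5.03, 60.6, 11.6, 13.2, 11.1 and 3.30 CPM in LATS_KO and at 5.66, 5.63, 6.996, 12.1 and 12.7 CPM in YAP_OE. Its log2 fold change was 6.97 ± 1.04 in LATS_KO (adjusted p = 0.0032, 5.99 without LATS_KO 2) and 5.95 ± 1.01 in YAP_OE (adjusted p = 0.0020). Both groups lay above all controls, and LATS_KO 2 was the highest library. Itgal, the alpha chain of lymphocytes and other leukocytes that binds ICAMs, was at 0, 0.386, 0.635 and 0.479 CPM in TdTomato, at 3.73, 57.4, 0, 26.5, 14.2 and 7.81 CPM in LATS_KO and at 9.79, 11.4, 14.4, 17.9 and 17.9 CPM in YAP_OE. It rose by 5.58 ± 1.31 (adjusted p = 0.015) and 5.22 ± 1.30 (adjusted p = 0.0094), and the LATS_KO change was 4.77 without LATS_KO 2 and lost its call without TdTomato 2 or 4 (adjusted p = 0.051 to 0.054).

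Itgam, the chain of monocytes, macrophages and neutrophils known as CD11b, had 3 control counts. It was at 0, 0.0552, 0.159 and 0 CPM in TdTomato, at 3.03, 32.02, 7.89, 2.28, 1.28 and 0.300 CPM in LATS_KO and at 2.06, 3.70, 4.38, 7.11 and 4.19 CPM in YAP_OE. Both groups lay above all controls. The ratio was 234 (80.0 to 1138) in LATS_KO and 90.8 (30.9 to 442) in YAP_OE (adjusted p = 0.0097 and 0.0071), and without TdTomato 3 it was 566 and 219. Without LATS_KO 2 the ratio in LATS_KO was 53.4. The log2 fold change of Itgam in LATS_KO was 7.15 in the reported fit and 4.11 with voom. Itgax, known as CD11c of dendritic cells and some macrophages, also had 3 control counts and ratios of 57.7 (19.6 to 282) in LATS_KO and 36.3 (12.3 to 177) in YAP_OE (adjusted p = 0.013 and 0.0081). Without LATS_KO 2 the Itgax ratio in LATS_KO was 37.1, and without TdTomato 4 the ratios were 117 and 73.7.

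Itga4, the chain of lymphocytes and monocytes that binds VCAM1 and fibronectin, rose in LATS_KO (5.65 ± 1.32, adjusted p = 0.015) and YAP_OE (4.61 ± 1.28, adjusted p = 0.016). Its LATS_KO value was 4.50 without LATS_KO 2, which held 15.2 CPM against at most 3.51 in the other LATS_KO libraries, and 6.39 without TdTomato 2. Without TdTomato 2 the YAP_OE value was 5.35, and without TdTomato 4 the LATS_KO call was lost (adjusted p = 0.055). With the column counted without strand, neither call passed (adjusted p = 0.25 and 0.50). Itgb7, the beta chain of gut-homing lymphocytes, rose in LATS_KO (3.82 ± 1.07, adjusted p = 0.032, 4.46 without TdTomato 2) and did not pass in YAP_OE (1.84, adjusted p = 0.20). That call was lost without any 1 of TdTomato 1 to 4 or LATS_KO 2 (adjusted p = 0.060 to 0.10). Itga9 was at 0, 3.09, 2.54 and 1.82 CPM in TdTomato, at 4.71, 37.1, 0, 21.6, 11.3 and 8.17 CPM in LATS_KO and at 10.7, 20.0, 25.9, 27.4 and 11.9 CPM in YAP_OE. It passed in YAP_OE (3.36 ± 1.19, adjusted p = 0.045) but not without any 1 of 13 libraries (all but LATS_KO 2 and 3; adjusted p = 0.0502 to 0.10).

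**Figure D4:**
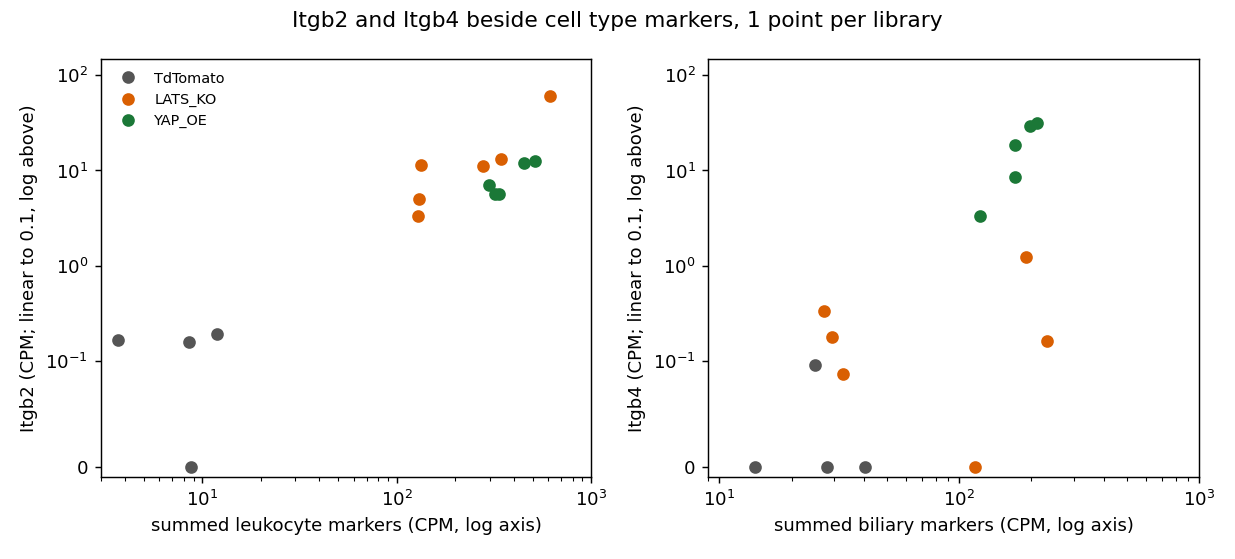
Itgb2 against the summed CPM of 10 leukocyte markers (left) and Itgb4 against the summed CPM of 6 biliary markers (right), 1 point per library (vertical axes linear to 0.1, logarithmic above; horizontal axes logarithmic). LATS_KO and YAP_OE lie to the upper right of TdTomato for Itgb2, and for Itgb4 the YAP_OE libraries lie above LATS_KO libraries of similar marker level.

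The 10 leukocyte markers summed to 3.70 to 11.8 CPM in TdTomato, 128 to 614 CPM in LATS_KO and 298 to 512 CPM in YAP_OE. LATS_KO 2, the highest library for Itgb2, Itgal, Itgam, Itgax and Itga4, was also the highest for this sum. Cd3e was at 0 in all 4 TdTomato libraries, at most 0.270 CPM in LATS_KO and at most 0.0784 CPM in YAP_OE. Cd79a reached 0.0479, 0.433 and 0.0741 CPM in the same order. Of the 8 markers tested, 7 were higher in each group, against 10.0% of all tested genes in LATS_KO and 17.9% in YAP_OE. The part of leukocyte number in the integrin values was not tested. The platelet markers (4 genes) reached 0.0794 CPM in TdTomato, 5.74 in LATS_KO and 2.51 in YAP_OE.

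The proteins that act with these chains were taken from 3 lists. Of 24 cytoplasmic integrin adaptors, which link the beta chain tail to actin, 6 were higher in LATS_KO and 11 in YAP_OE, against 10.0% and 17.9% of all tested genes, with medians of 0.66 and 1.02 against 0.13 and 0.17. Flna, the actin crosslinker filamin A, rose by 5.59 ± 1.22 (adjusted p = 0.012) and 6.63 ± 1.29 (adjusted p = 0.0033), and Nedd9, a scaffold of focal adhesions, by 4.89 ± 1.10 (adjusted p = 0.013) and 5.42 ± 1.13 (adjusted p = 0.0047). Parvg, the parvin of blood cells, had 2 control counts, with ratios of 155 (42.7 to 1282) and 46.6 (12.7 to 388). Without LATS_KO 2 the Parvg ratio in LATS_KO was 51.3, and without TdTomato 4 the ratios were at least 69.8-fold and 21.0-fold. Flna in LATS_KO was 4.86 without LATS_KO 2 and 2.63 with voom, and Nedd9 was 2.21 with voom. Zyx, a focal adhesion protein, rose by 1.45 ± 0.38 in LATS_KO (adjusted p = 0.025) and Lims1, a partner of integrin-linked kinase, by 2.20 ± 0.52 in YAP_OE (adjusted p = 0.0080). The Zyx call was lost without TdTomato 4 or LATS_KO 2 (adjusted p = 0.079 and 0.055) and with voom (0.55, adjusted p = 0.058). None of the lists had a member called between YAP_OE and LATS_KO. They had 2, 3 and 2 members at an unadjusted p under 0.05, with no share of all genes computed at that threshold. Without TdTomato 1 and LATS_KO 3, 2 basement membrane genes were higher in YAP_OE, against 5.56% of all genes.

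Of 12 basement membrane partners of laminin, 3 were higher in LATS_KO and 8 in YAP_OE (10.0% and 17.9% of all tested genes), with medians of 1.82 and 2.12 against 0.13 and 0.17. Bcam, a receptor for Lama5, rose by 5.82 ± 1.05 (adjusted p = 0.0057) and 6.49 ± 1.09 (adjusted p = 0.0019). Nid1, which bridges laminin and collagen IV, rose by 6.86 ± 1.49 (adjusted p = 0.012) and 7.61 ± 1.56 (adjusted p = 0.0042). Agrn, a proteoglycan that binds laminin, rose by 2.26 ± 0.65 (adjusted p = 0.038) and 3.31 ± 0.70 (adjusted p = 0.0049), and Nid2 by 2.64 ± 0.52 in YAP_OE (adjusted p = 0.0036). With voom, Bcam was 3.18 and Nid1 2.48 in LATS_KO, and Bcam was 5.08 there without TdTomato 1 and LATS_KO 3. Agrn in LATS_KO did not pass with voom (0.42, adjusted p = 0.32), without TdTomato 1 and LATS_KO 3 (1.74, adjusted p = 0.10), or without any 1 of 11 libraries (all but LATS_KO 4, 5 and 6 and YAP_OE 5; adjusted p = 0.052 to 0.10). Of the 12 tested of 14 other integrin ligands, 2 were higher in LATS_KO (Spp1 and Thbs1), and in YAP_OE 4 were higher and 1 lower, against 10.0%, 17.9% and 10.8% of all tested genes, with medians of 0.64 and 0.59. Icam1, a ligand of Itgb2 integrins, rose in YAP_OE by 2.08 ± 0.54 (adjusted p = 0.011) and Icam2 by 3.24 ± 1.04 (adjusted p = 0.031). Fgg, the fibrinogen gamma chain made by hepatocytes, fell by 1.31 ± 0.44 on the log2 scale (adjusted p = 0.038). The Icam2 call was lost without any 1 of TdTomato 3 or 4 or YAP_OE 1, 2, 4 or 5 (adjusted p = 0.051 to 0.081), and that of Fgg without any 1 of TdTomato 2 to 4 or YAP_OE 1 to 5 (adjusted p = 0.056 to 0.13); Icam2 was 2.52 with voom. Thbs1, which binds several integrins, had 3 control counts and ratios of 658 (225 to 3192) in LATS_KO and 294 (101 to 1428) in YAP_OE. Without TdTomato 4 these were 1335 and 597, and without LATS_KO 2 the former was 285.

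The 5 untested members were low in all libraries. Itga11 had 0 control counts and was at least 5.08-fold higher in LATS_KO and at least 4.62-fold higher in YAP_OE, taking 3 counts over the whole control group as the floor. Of its 27 counts in LATS_KO, 24 were in LATS_KO 2, and without that library no higher level was shown (bound of 0.79). Itgad, another leukocyte chain, had 0 control counts and was at least 1.88-fold higher in LATS_KO, and at least 1.08-fold without LATS_KO 5. Lama2, a laminin chain of muscle, had 1 control count and a ratio of 44.8 (7.85 to 1787) in YAP_OE (at least 10.7-fold without TdTomato 2), and Itgae did not exceed 0.449 CPM in any library. These bounds cover counting error only.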

How the data were processed

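RNA of 15 liver libraries was analysed. The authors deposited raw gene counts, 1 whole number per gene and strand setting as STAR writes them; FastQC, Trimmomatic and STAR with mm10 are named per the submitters' processing notes, and settings are not given in the sources used here. The reverse-stranded column was used, since the forward one held 0.966% to 1.99% of strand-assigned counts. Lines that name no gene (14.2% to 92.5% of a library's reads) were left out.

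Group differences in these counts came from glmQLFTest, the quasi-likelihood test in edgeR 4.0.16 (R 4.3.3), with TMM factors and filterByExpr, in 1 fit of all 15 libraries with 12 residual degrees of freedom, two-sided, with Benjamini-Hochberg adjustment over 13055 genes and a threshold of 0.05. Depths were 6166680 to 28225360 counts. CPM use TMM-scaled library sizes, and exon lengths come from GENCODE M21. Ratios against 1 to 3 control counts carry exact 95% counting intervals, and reads without molecular identifiers make these cover counting error only. All replicate pairs differed by more than sampling noise. The scripts were tested on simulated data. Every-library values were given for members that passed in a comparison with a group mean of at least 5 CPM, and for Itgb1, Itgb2 and Lamc1; those below 5 CPM, and members that did not pass, were named after their values were seen. Results of 1 member are counted in the totals but not reported here. The members, lists and tests were chosen with earlier results of these data known. Alternatives were RLE factors, DESeq2 1.42.0, voom of limma 3.58.1 with quality weights, other filters, the unstranded column, other sets of libraries and a replicate block.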

Additional observations from a re-analysis of the deposited data

Results flagged for a closer look

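Of 96 groups of values tested over the members, 16 had a single library far from the others of its group. The 95% critical value used marks about 5% of groups of normally distributed values. These CPM values hold many zeros, so that share cannot be set against the 16. A single nonzero control among zeros, as for Itgb4, Itgb6 and Itgb8, is always marked.

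LATS_KO 2 was the high library for Itga4 (15.2 CPM), Itgam (32.02 CPM), Itgb2 (60.6 CPM), Itgb4 (1.23 CPM) and Itgb6 (5.99 CPM). LATS_KO 1 was high for Itgb8 (3.14 CPM) and LATS_KO 3 for Itga10 (5.22 CPM). TdTomato 1 was the low control for Itga3, Itgb2 and Lamb3, each at 0 CPM, and the high control for Itga8 (5.89 CPM). Other control values rest on 1 or 2 counts: Itgb4 in TdTomato 4 (0.0958 CPM), Itgb6 in TdTomato 2 (0.0552 CPM) and Itgb8 in TdTomato 3 (0.0794 CPM). YAP_OE 5 was the low library for Itga3 (71.9 CPM) and Lama5 (40.6 CPM).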

How the results depend on the processing

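Members higher in LATS_KO, 11 in the reported fit, were 19 with DESeq2, 0 when only the groups compared were fitted and 6 with the replicate block, and members higher in YAP_OE than in LATS_KO, 1 in the reported fit, were 0 with the block and 18 with voom. Members lower, 0 in the reported fit, were 1 in YAP_OE against TdTomato and 1 against LATS_KO with voom, and 1 and 1 without TdTomato 1 and LATS_KO 3.

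Over all genes, the 1438 calls of LATS_KO were 3093 with DESeq2, 3504 with voom, 1 with only the groups compared, 740 with the block and 2245 without those 2 libraries. The 3744 of YAP_OE were 8872 with voom and 6416 without them, and the 129 between YAP_OE and LATS_KO were 858 with DESeq2, 7325 with voom, 13 with the block and 1688 without them. The share of calls that were higher was 91.2% in LATS_KO, 60.2% with voom, 78.6% with the block and 80.9% without those libraries. In YAP_OE it was 62.3%, 70.4% with RLE factors, 53.0% with voom and 56.2% without those libraries; between YAP_OE and LATS_KO it was 50.4%, and 69.2% with the block. Itgb4 lost that call with the block (adjusted p = 0.21). Leaving out 1 library at a time gave 588 to 1798, 2585 to 4973 and 36 to 389 calls, and 6 to 15, 13 to 21 and 1 to 2 members higher, with 0 to 0 lower in all 3. The causes were not tested.

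Directions reversed for Itgb1 in LATS_KO (−0.11 with voom), for Itga8 in LATS_KO (2.54 with voom, 1.91 without TdTomato 1, 2.16 without both libraries) and for Itga8 in YAP_OE (2.53 with voom, 0.99 with the block, 2.40 without TdTomato 1, 2.40 without both). Leaving out 1 library at a time, Itga8 ranged from −1.16 to 1.91 in LATS_KO and from −0.55 to 2.40 in YAP_OE. The replicate number did not pair the libraries: the deviations of 13 same-numbered pairs correlated between −0.249 and 0.232 (median −0.0041), and 4 exceeded 0.1.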
